A study of Arabidopsis thaliana with 12 samples.

Results

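Sulfate transporters and APS reductases bring sulfate into the plant and reduce it, and 9 of their genes were followed in Arabidopsis thaliana seedlings exposed to polystyrene nanoplastics. The 9 genes were taken by locus, and all of them were found among the 24912 genes that the deposited tables list. Of these, 6 encode transporters, namely SULTR1;1 (AT4G08620), SULTR1;2 (AT1G78000), SULTR2;1 (AT5G10180), SULTR2;2 (AT1G77990), SULTR4;1 (AT5G13550) and SULTR4;2 (AT3G12520). The other 3 are the APS reductase genes APR1 (AT4G04610), APR2 (AT1G62180) and APR3 (AT4G21990). The plants were wild type of accession Col, aged 10 days and raised on 1/2 MS medium without particles (control), with PS-SO3H nanoplastics at 50 ug/ml or with PS-NH2 nanoplastics at 50 ug/ml. Leaf and root were sequenced apart, which gave 6 groups of 2 libraries each. The labels do not say whether the 2 libraries of a group came from separate plants, so the p-values may measure technical spread only. There are 4 deposited tables, 1 for each particle in each tissue, and every table sets the treated group against the control of its tissue. They hold 1 fitted level per gene and group and nothing per library, so the depth and the spread of single libraries are unknown.

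Sulfate enters the root through SULTR1;1 and SULTR1;2, moves through the vascular tissue with the help of SULTR2;1 and SULTR2;2, and is released from vacuoles by SULTR4;1 and SULTR4;2. In the cell ATP sulfurylase activates it with ATP to form adenosine phosphosulfate (APS). APS reductase then reduces APS to sulfite in plastids, on the way to cysteine and glutathione, while APS kinase diverts APS to sulfated compounds such as glucosinolates. APS reductase is known as a main control point of this pathway in Arabidopsis. Transcripts of the reductases and of several transporters are known to rise when sulfur is short and to fall when thiols are abundant.

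The microRNA miR395, which accumulates when sulfur is short, is known to pair with transcripts of the vascular transporter gene SULTR2;1 and of ATP sulfurylase genes. Its mature forms and their sites are shown because that transporter gene moved in opposite directions with the particles in root. The RefSeq annotation of TAIR10.1 gives 6 miR395 genes with 2 mature sequences of 21 bases, printed here with the seed (bases 2 to 8) in capitals. MIR395a, MIR395d and MIR395e share the first form, and MIR395b, MIR395c and MIR395f the other, and the seed is the same in both. The 4 sites found in transcripts are given in DNA letters, with capitals where a base is the exact complement of the base opposite in the first form. A T opposite a G was counted as a mismatch.
MIR395a: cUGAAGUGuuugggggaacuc
MIR395b: cUGAAGUGuuuggggggacuc
SULTR2;1 site: aAGTTCtCCCAAACACTTCAa
ATPS1 site: GAGTTCCtCCAAACtCTTCAt
ATPS3 site: GAGTTCCtCCAAACtCTTCAt
ATPS4 site: GAGTTCCtCCAAACACTTCAt
The transporter's site lies in the coding sequence at chr5:3193268-3193288 (TAIR10.1, plus strand) and has 3 mismatches. The sites of ATPS1 (chr3:8113164-8113184, plus strand) and ATPS3 (chr4:8414958-8414978, minus strand) are identical to each other, with 3 mismatches. That of ATPS4 (chr5:17591121-17591141, minus strand) has 2 mismatches. These were the only genes with a site of at most 4 mismatches among the 9 genes and 34 other genes of sulfate assimilation. The 4 tables list 0 of the 6 miR395 genes, so no level of the microRNA is given.

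Tissue labels were checked on the control levels of marker genes. In the PS-SO3H tables all 8 green-tissue markers were lower in root than in leaf, with log2 ratios of root over leaf from -10.45 (CA1, carbonic anhydrase) to -5.04 (PSBO1, of photosystem II), and all 8 root markers were higher in root, from 0.02 (SCR) to 6.71 (PIN2). In the PS-NH2 tables the ratios ran from -10.41 (CA1) to -4.99 (PSBO1) and from 0.07 (SCR) to 7.08 (RSL4). The authors normalized leaf and root separately, so a level set across tissues is a description with no test. In bulk tissue, fewer cells of a type and less RNA per cell cannot be told apart. The same control libraries are fitted in both tables of a tissue. The 2 fits of a control level differed by at most 1.43% in leaf for the members other than SULTR1;1, and by at most 3.53% in root for all 9.

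Levels differed widely between the 9 genes and between tissues. Per kilobase of gene length, the reductases led in control leaf in the PS-SO3H table, with a fitted level of 3924 for APR2, 3123 for APR3 and 1964 for APR1. The vascular transporter gene SULTR2;1 stood between the last 2 of these with 2186 per kilobase. Of the vacuolar exporters SULTR4;1 had 588 per kilobase and SULTR4;2 had 186, and the other vascular gene had 275. The root uptake gene SULTR1;2 had 161 per kilobase in leaf and its relative SULTR1;1 had 0.522. In the PS-NH2 table the seventh and eighth genes changed places, with 169 for the vacuolar and 171 for the uptake gene. The length given for the uptake gene is 2550 bases in the PS-SO3H table and 2359 in the other. That of the vacuolar gene is 2094 and 2281 bases. Before division by length the order was the same in both tables (410 and 405 for the uptake gene, 390 and 386 for the vacuolar gene). These neighbours cannot be ordered per kilobase.

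Control root had another order. The uptake gene SULTR1;2 led with 5633 per kilobase in the PS-SO3H table, followed by APR3 with 2377, APR1 with 2046 and APR2 with 1030. The vascular gene SULTR2;1 had 756, the vacuolar genes had 677 and 297, the second vascular gene had 243 and SULTR1;1 had 84.6 per kilobase. The order in control root was the same in the PS-NH2 table. As a log2 ratio of control root over control leaf in the PS-SO3H tables, the main uptake gene had 5.14, APR2 had -1.91, the first vascular gene had -1.53, APR3 had -0.39 and APR1 had 0.06.

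**Figure D1:**
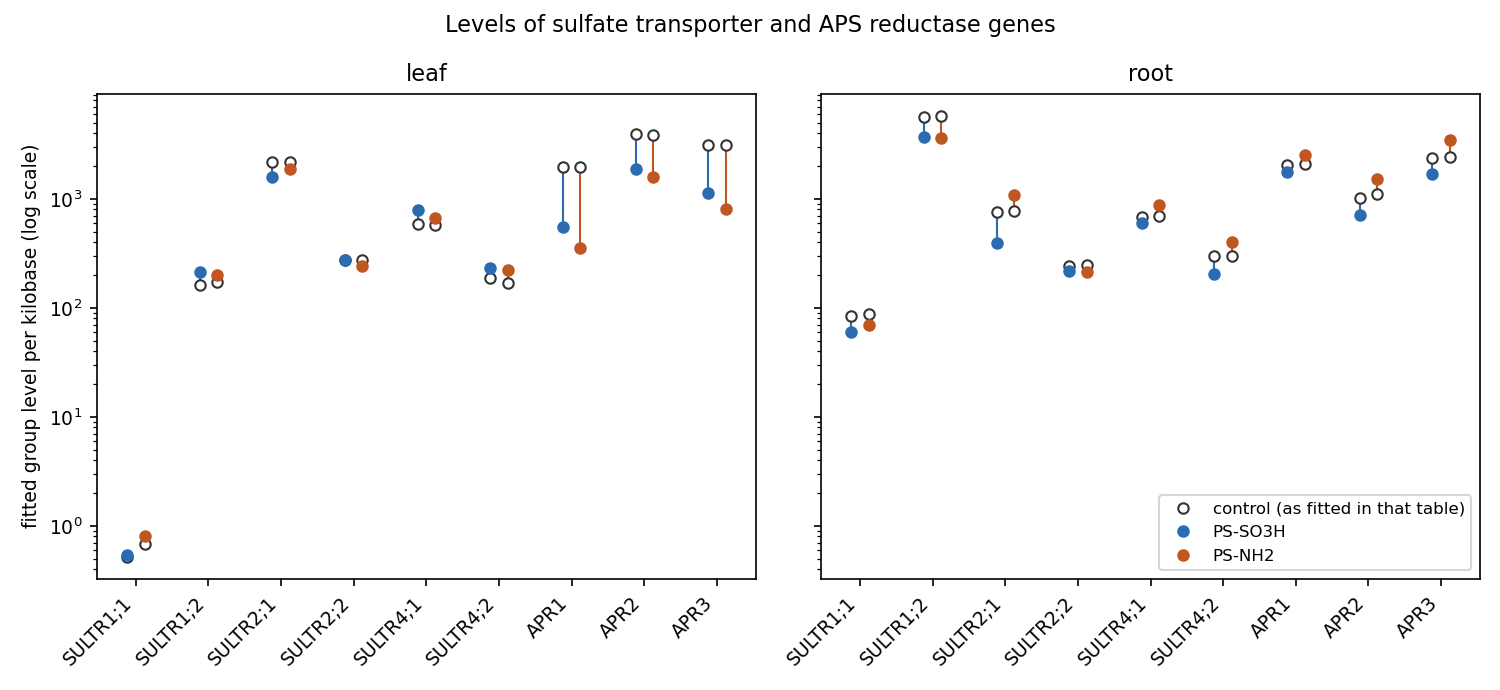
Fitted group level per kilobase (log scale) of the 9 genes in leaf and root, where open circles are the control as fitted in each table and filled circles the treated group, joined by a line. The APS reductases drop in leaf with both particles, SULTR1;1 in leaf lies under 1 per kilobase, and SULTR1;2 is the highest of the 9 in root.

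The order differed from that of control in 3 of the 4 treated groups, and in root with PS-NH2 it was the same as in control. In leaf with PS-NH2 the vascular gene SULTR2;1 led with 1866 per kilobase, ahead of APR2 with 1579.7 and APR3 with 809, and APR1 had 356. In leaf with PS-SO3H, APR2 stayed first with 1896 per kilobase, ahead of the same transporter gene with 1598. In root with PS-SO3H, APR1 with 1759 and APR3 with 1679 changed places relative to control.

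All 3 APS reductase genes fell in leaf with both particles. APR1 had a fitted level of 3800.0 in control leaf and 1069 with PS-SO3H in the authors' deposited table, and 3785 and 688 with PS-NH2. Both treated levels lay far below the control fits, and leaf with PS-NH2 held the lowest APR1 level of the 6 groups. The log2 fold change was -1.83 ± 0.15 with PS-SO3H (SE, computed back from the fold change and p-value of the table, authors' adjusted p = 7.95e-32) and -2.46 ± 0.12 with PS-NH2 (authors' adjusted p = 3.17e-82). As a share of control, APR1 fell by 71.9% with PS-SO3H and fell by 81.8% with PS-NH2.

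APR2, which encodes the isoform known to carry most of the leaf activity, went from 6643 to 3209 in leaf with PS-SO3H and from 6625 to 2689 with PS-NH2 in the authors' deposited tables. Its log2 fold changes were -1.05 ± 0.16 (authors' adjusted p = 2.27e-08) and -1.30 ± 0.12 (authors' adjusted p = 6.72e-27). APR3 went from 5574 to 2041 with PS-SO3H and from 5583 to 1444 with PS-NH2. Its log2 fold changes were -1.45 ± 0.19 (authors' adjusted p = 9.53e-12) and -1.95 ± 0.13 (authors' adjusted p = 5.85e-48). In both tables the point estimate of the decrease was steepest for APR1 and least steep for APR2, the most abundant of the 3 in leaf. At an authors' adjusted p below 0.05, the threshold for a call throughout, 2.63% of all genes were lower in the leaf PS-SO3H table and 7.4% in the leaf PS-NH2 table.

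In root APR2 and APR3 fell with PS-SO3H and rose with PS-NH2. APR2 went from 1762 to 1227 with PS-SO3H in the authors' deposited table (log2 -0.52 ± 0.11, authors' adjusted p = 4.27e-05) and from 1817 to 2501 with PS-NH2 (0.46 ± 0.10, authors' adjusted p = 0.000183). APR3 went from 4242 to 2997 with PS-SO3H (-0.50 ± 0.09, authors' adjusted p = 7.31e-07) and from 4365 to 6214 with PS-NH2 (0.51 ± 0.08, authors' adjusted p = 4.56e-08). For both genes the control fits lie between the 2 treated levels. APR1 had 3958 in control root and 3403 with PS-SO3H, a log2 fold change of -0.22 ± 0.09 that was not called (authors' adjusted p = 0.183). With PS-NH2 it rose from 4065 to 4924 (0.28 ± 0.09, authors' adjusted p = 0.0456).

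**Figure D2:**
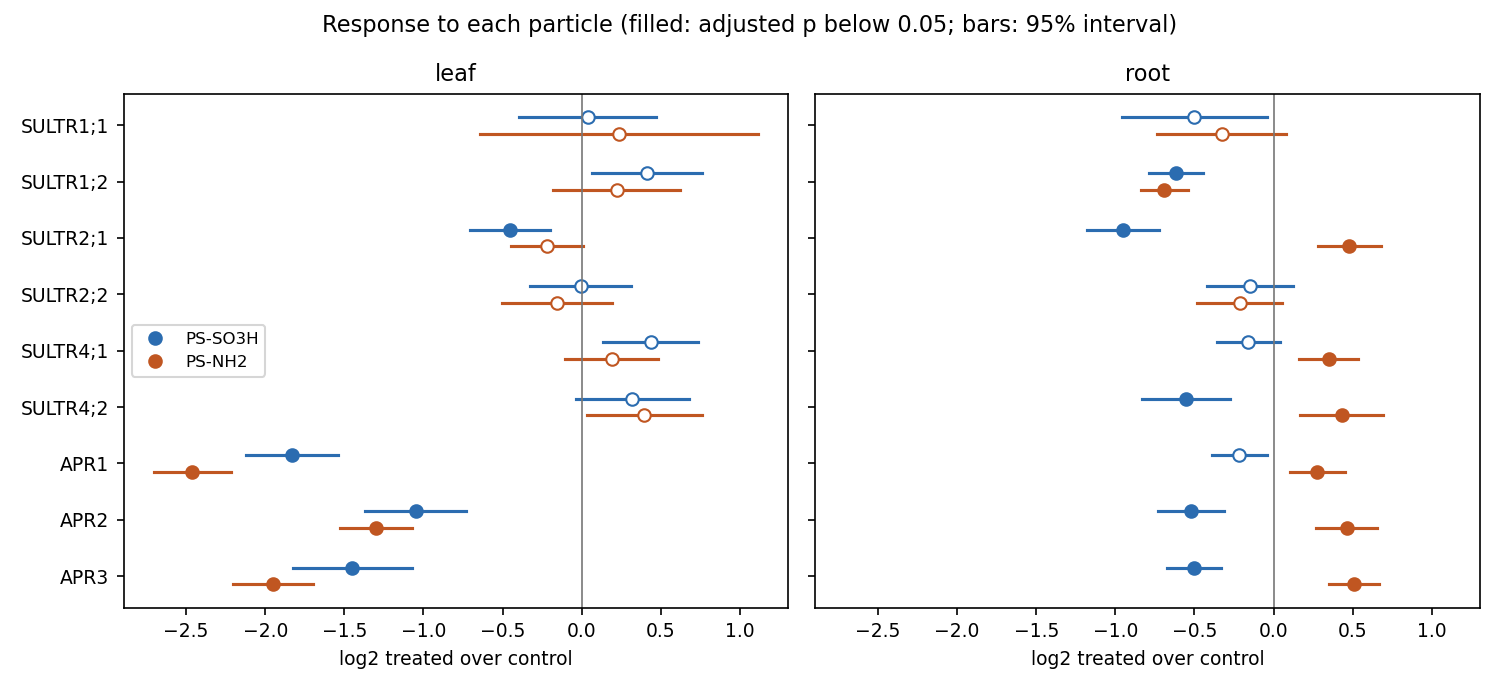
Log2 treated over control for the 9 genes in leaf and root, with 95% intervals from the SE, where filled points have an authors' adjusted p below 0.05. The reductases lie between -2.46 and -1.05 in leaf with both particles, and in root PS-SO3H and PS-NH2 fall on opposite sides of 0 for SULTR2;1, SULTR4;1, SULTR4;2 and the reductases, of which SULTR4;1 and APR1 were not called with PS-SO3H.

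The summed level of the 3 reductase genes per kilobase was 9011 in control leaf and 3592 with PS-SO3H, which is 39.9% of control, and 8976 and 2744 with PS-NH2, which is 30.6%. In root the sum was 5452 in control and 4155 with PS-SO3H (76.2%), and 5648 and 7542 with PS-NH2 (134%). The makeup of the sum also differed. APR2 made up 43.5% of it in control leaf (43.4% in the PS-NH2 table), 52.8% with PS-SO3H and 57.6% with PS-NH2, whereas APR1 went from 21.8% to 15.4% and 13.0%. In the root PS-SO3H table APR2 made up 18.9% in control and 17.3% in the treated group, and APR3 made up 43.6% and 40.4%. In the root PS-NH2 table APR2 made up 19.5% and 20.1%, and APR3 made up 43.3% and 46.2%. The length given for APR2 differs between these tables, 1711 and 1649 bases, which moves its share. These shares come from fitted levels and carry no test.

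**Figure D3:**
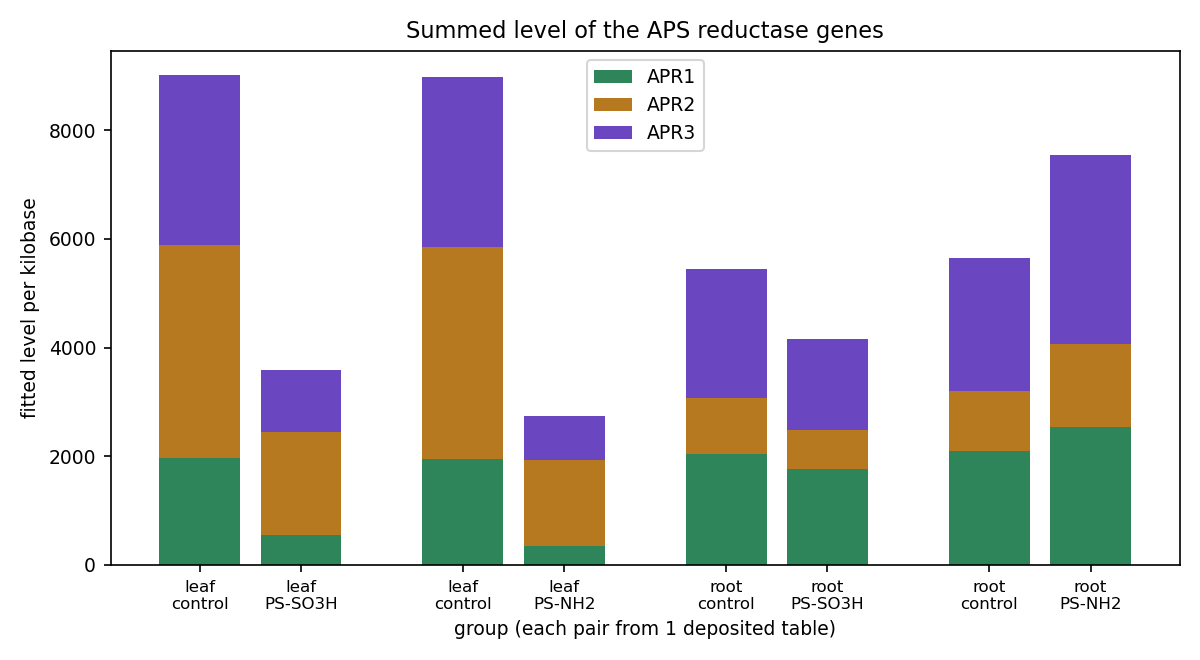
Summed fitted level per kilobase of APR1, APR2 and APR3, stacked, for the control and treated groups of each deposited table. The treated leaf bars stand at 39.9% and 30.6% of their controls, and the root bars at 76.2% with PS-SO3H and 134% with PS-NH2.

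Among the uptake transporters, SULTR1;2, known as the main sulfate importer of roots, fell in root with both particles. Its level went from 14439 to 9419 with PS-SO3H in the authors' deposited table (log2 -0.62 ± 0.09, authors' adjusted p = 1.62e-10) and from 14795 to 9173 with PS-NH2 (-0.69 ± 0.08, authors' adjusted p = 7.26e-17). The treated levels of the particles lay close together and under both fits of the control. As a share of control the gene fell by 34.8% with PS-SO3H and fell by 38.0% with PS-NH2. In leaf it had 410.3 in control and 546 with PS-SO3H, and 405 and 472 with PS-NH2, and neither fold change was called (0.41 ± 0.18 with authors' adjusted p = 0.231, and 0.22 ± 0.20 with 0.72).

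Its relative SULTR1;1, a root transporter gene strongly induced by sulfur shortage, was low throughout. In root it had 199 in control and 141 with PS-SO3H (log2 -0.50 ± 0.23, authors' adjusted p = 0.321), and 206 and 164 with PS-NH2 (-0.33 ± 0.21, authors' adjusted p = 0.716). Both treated root levels lay below the control fits without being called. In leaf the fitted levels of 1.23 to 1.91 are too low to read a change from.

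SULTR2;1, which takes up sulfate in the vascular parenchyma and is tied to its transport from root to shoot, fell with PS-SO3H in both tissues. In leaf its level went from 5597 to 4091 (log2 -0.45 ± 0.13, authors' adjusted p = 0.0129) in the authors' deposited table, and in root from 1936 to 1002 (-0.95 ± 0.12, authors' adjusted p = 7.70e-14). With PS-NH2 it rose in root, from 2002 to 2792 (0.48 ± 0.10, authors' adjusted p = 0.000199). In leaf with PS-NH2 the levels were 5558 and 4778, and the fold change was not called (-0.22 ± 0.12, authors' adjusted p = 0.284). In root the PS-SO3H level was thus the lowest and the PS-NH2 level the highest of the 3 treatments.

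The other vascular transporter gene, SULTR2;2, was called in 0 of the 4 tables. Its levels were 643 and 640.1 in leaf with PS-SO3H, 636 and 571 in leaf with PS-NH2, 567 and 511 in root with PS-SO3H and 580.5 and 500.1 in root with PS-NH2, control first. The log2 fold changes were -0.01 ± 0.16 and -0.16 ± 0.18 in leaf and -0.15 ± 0.14 and -0.22 ± 0.14 in root, for PS-SO3H and PS-NH2 in turn, and the lowest authors' adjusted p was 0.728. With PS-NH2 in root the 95% interval ran from -0.49 to 0.06. On chromosome 1 of TAIR10.1 this gene and the main uptake gene are neighbours on opposite strands, with 4162 bases and 0 annotated genes between them. Of the pair, the uptake gene alone was called in root.

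The vacuolar exporters SULTR4;1 and SULTR4;2 rose in root with PS-NH2. The first went from 1668 to 2123 (log2 0.35 ± 0.10, authors' adjusted p = 0.00995) in the authors' deposited table and the other from 682 to 919 (0.43 ± 0.13, authors' adjusted p = 0.0347). With PS-SO3H the lower-expressed SULTR4;2 fell in root from 658 to 449 (-0.55 ± 0.14, authors' adjusted p = 0.00365), while SULTR4;1, at 1623 and 1452, was not called (-0.16 ± 0.10, authors' adjusted p = 0.68). In leaf neither gene was called. With PS-SO3H the levels there were 1410 and 1908 for the first (0.44 ± 0.15, authors' adjusted p = 0.0831) and 390.0 and 487 for the other (0.32 ± 0.18, authors' adjusted p = 0.516). With PS-NH2 they were 1389.9 and 1585 (0.19 ± 0.15, authors' adjusted p = 0.621) and 386 and 507 (0.40 ± 0.19, authors' adjusted p = 0.195).

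Counted over the 9 genes, 4 fell and 0 rose with PS-SO3H in leaf, against a background of 2.63% lower, 1.83% higher and 4.46% in either direction among all genes of that table. With PS-NH2 in leaf 3 fell and 0 rose, against 7.4% lower, 3.79% higher and 11.2% in either direction. With PS-SO3H in root 5 fell and 0 rose, against 1.95% lower, 2.88% higher and 4.84% in either direction. With PS-NH2 in root 6 rose and 1 fell, against 1.62% higher, 2.7% lower and 4.32% in either direction. The median log2 fold change of the 9 genes was -0.01, -0.16, -0.50 and 0.35 in these tables in turn, and the median of all genes was within 0.01 of 0 in each. Every called change in root was smaller than 1 on the log2 scale. Among the 9 genes the authors' own up and down marks fell only on changes of more than that size, and 0 members carry one in root.

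Green-tissue markers changed in root as well. Their summed level was 16257 in control root and 13293 with PS-SO3H, and 16724 and 21709 with PS-NH2. As a share of the sum in control leaf that is 1.23% and 1.00% with PS-SO3H, and 1.28% and 1.66% with PS-NH2. Of the 8 markers 3 fell with PS-SO3H (LHCB1.3, LHCB3 and CA1), against 1.95% of all genes lower in that table. With PS-NH2 2 rose (RBCS1A and LHCB1.3) and 1 fell (CA1), against 1.62% of all genes higher and 2.7% lower. Of the 8 root markers 2 rose in root with PS-SO3H (EXPA7 and COBL9, of root hairs), against 2.88% of all genes. The sum of the 8 went from 10315 to 13552 there. With PS-NH2 1 rose (PIN2), against 1.62% of all genes, and the sum went from 10199.6 to 9774. The summed green markers moved in the direction of every called member in root, except SULTR1;2 with PS-NH2, and their part in those results was not tested. In leaf 0 of 8 green markers were called with PS-SO3H, against 4.46% of all genes. With PS-NH2 1 rose and 2 fell, against 3.79% of all genes higher and 7.4% lower. The summed root markers in leaf went from 1013 to 917 with PS-SO3H and from 999.9 to 866 with PS-NH2. Of these 8 markers 0 were called in either table, against 4.46% and 11.2% of all genes.

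Between the particles, given at the same dose, the root responses differed for 6 of the 9 genes, each higher with PS-NH2 than with PS-SO3H. Among all genes 0.974% were called higher, 2.26% lower and 3.24% in either direction in this comparison. For the vascular gene SULTR2;1 the fold change with PS-NH2 minus that with PS-SO3H was 1.43 ± 0.15 on the log2 scale (95% interval 1.13 to 1.73, adjusted p = 5.88e-17 from a normal approximation with Benjamini-Hochberg adjustment over all genes). It was 1.01 ± 0.12 for APR3 (95% interval 0.78 to 1.24, adjusted p = 1.57e-14), 0.98 ± 0.14 for APR2 (0.70 to 1.27, adjusted p = 3.20e-09) and 0.49 ± 0.13 for APR1 (0.25 to 0.74, adjusted p = 0.00484). Of the vacuolar exporters, SULTR4;2 differed by 0.98 ± 0.20 (0.60 to 1.36, adjusted p = 5.98e-05) and SULTR4;1 by 0.51 ± 0.14 (0.23 to 0.78, adjusted p = 0.0128).

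The other 3 genes did not reach the threshold for a particle difference in root. The difference was -0.07 ± 0.11 for SULTR1;2 (95% interval -0.30 to 0.15), which fell with both particles. It was 0.17 ± 0.31 for the second uptake gene (-0.44 to 0.79) and -0.07 ± 0.20 for the second vascular gene (-0.45 to 0.32).

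In leaf 1 of 9 genes differed between the particles, APR1, which was lower with PS-NH2, the difference being -0.63 ± 0.19 (95% interval -1.01 to -0.25, adjusted p = 0.0387). Among all genes 2.59% were called lower, 0.583% higher and 3.17% in either direction. APR3 differed by -0.50 ± 0.23 (-0.95 to -0.05, adjusted p = 0.408) and APR2 by -0.25 ± 0.20 (-0.64 to 0.14), and neither was called. The transporters other than SULTR1;1 had differences between -0.25 and 0.23 in leaf, with 95% limits from -0.72 to 0.59. Both fold changes use the same control libraries, so the added SEs are too large for the comparison of particles. With a covariance for the shared control taken out, APR3 was called in leaf too (adjusted p = 0.0384). That covariance rests on a correlation of 0.5 assumed for every gene and not estimated from the data.

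**Figure D4:**
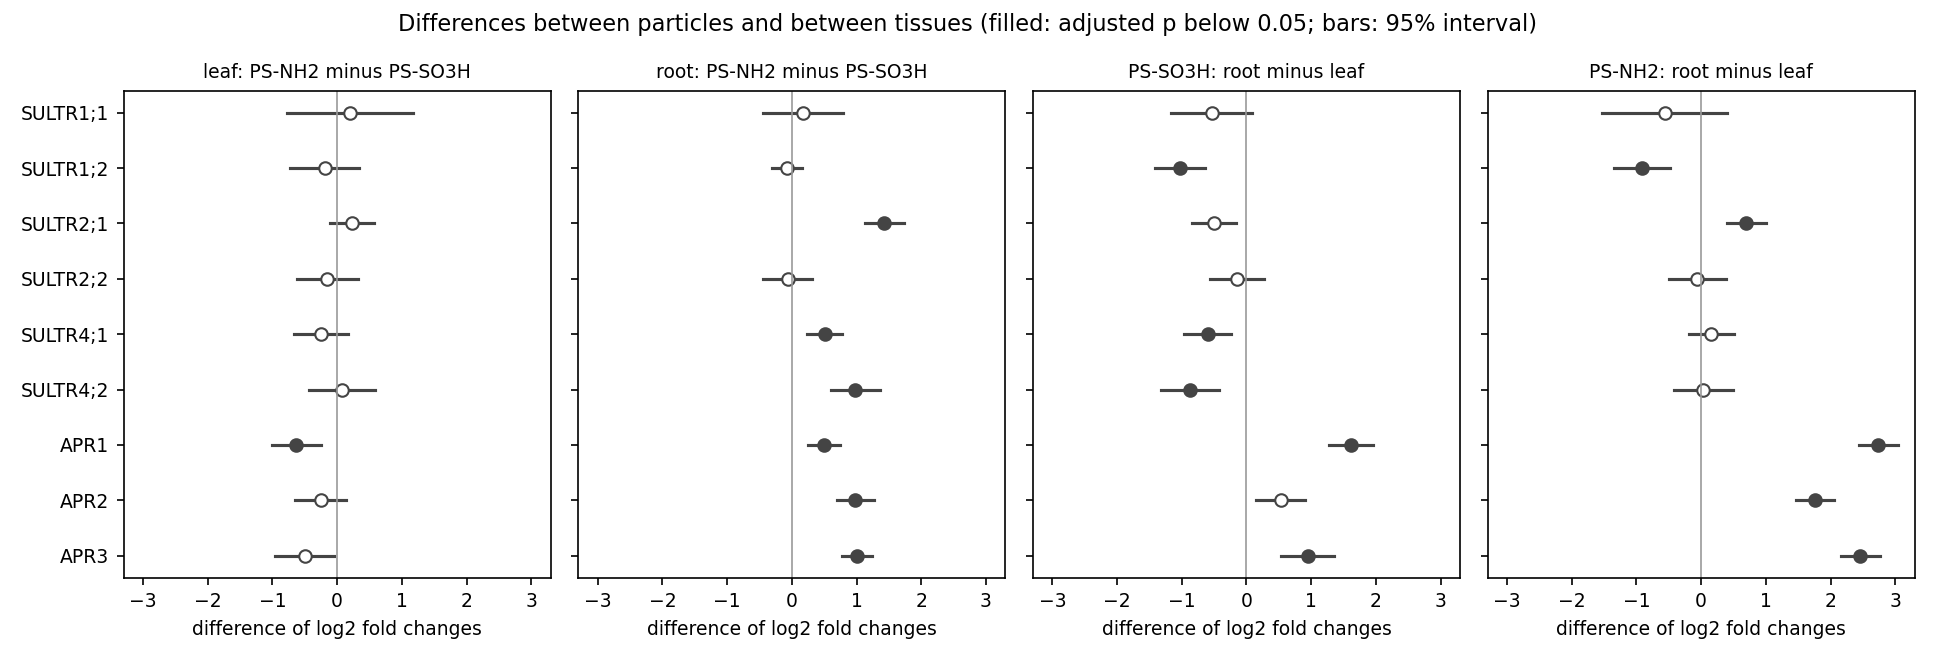
Differences of log2 fold changes for the 9 genes between particles in each tissue and between tissues for each particle, with 95% intervals, where filled points have an adjusted p below 0.05. In root 6 genes have filled points above 0 for PS-NH2 minus PS-SO3H, and the reductases lie far above 0 for PS-NH2 in root minus leaf (1.76 to 2.74).

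Responses of the reductases also differed between tissues. With PS-NH2 the fold change in root minus that in leaf was 2.74 ± 0.15 on the log2 scale for APR1 (adjusted p = 9.46e-67 by the same approximation), 2.46 ± 0.15 for APR3 (adjusted p = 2.29e-54) and 1.76 ± 0.15 for APR2 (adjusted p = 1.19e-27). With PS-SO3H it was 1.61 ± 0.17 for APR1 (adjusted p = 3.63e-17) and 0.95 ± 0.21 for APR3 (adjusted p = 0.000667), and for APR2 it was 0.53 ± 0.19, which was not called (adjusted p = 0.166). Among all genes 1.63% were called higher, 0.902% lower and 2.54% in either direction in root against leaf with PS-SO3H. With PS-NH2 the shares were 4.59%, 1.99% and 6.58%. Of the 9 genes 2 were higher and 3 lower with PS-SO3H, and 4 were higher and 1 lower with PS-NH2.

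The uptake gene SULTR1;2 differed between tissues the other way, by -1.03 ± 0.20 with PS-SO3H (adjusted p = 3.38e-05) and -0.91 ± 0.22 with PS-NH2 (adjusted p = 0.00112). The vascular gene SULTR2;1 differed with PS-NH2 by 0.70 ± 0.15 (adjusted p = 0.000282), and its difference of -0.50 ± 0.17 with PS-SO3H was not called (adjusted p = 0.115). The vacuolar exporters differed with PS-SO3H, SULTR4;2 by -0.87 ± 0.23 (adjusted p = 0.0102) and SULTR4;1 by -0.60 ± 0.18 (adjusted p = 0.0478). With PS-NH2 they did not reach the threshold, at 0.03 ± 0.23 (95% interval -0.42 to 0.48) and 0.16 ± 0.18 (-0.19 to 0.51). These differences rest on tables that were scaled apart.

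Of the 34 other genes of sulfate assimilation, 8 fell and 3 rose with PS-SO3H in leaf, and 13 fell and 3 rose with PS-NH2. Among all genes in leaf 2.63% were lower and 1.83% higher with PS-SO3H, and 7.4% lower and 3.79% higher with PS-NH2. In root 3 of the 34 fell and 4 rose with PS-SO3H, against 1.95% lower and 2.88% higher among all genes, and 3 fell and 5 rose with PS-NH2, against 2.7% and 1.62%. The median log2 fold change of the 34 was 0.04, -0.37, -0.05 and 0.04 in these tables in turn. Upstream of the reductases, 3 of 4 ATP sulfurylase genes fell in leaf with each particle (ATPS2, ATPS3 and ATPS4). In root 3 of the 4 fell with PS-SO3H (ATPS1, ATPS3 and ATPS4) and 2 with PS-NH2 (ATPS1 and ATPS4).

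The genes whose miR395 sites are printed above did not all move alike. In the authors' deposited tables for root, ATPS4 had log2 fold changes of -0.96 ± 0.11 with PS-SO3H and -1.29 ± 0.11 with PS-NH2, and ATPS1 had -0.26 ± 0.08 and -0.25 ± 0.08. ATPS3 fell with PS-SO3H (-0.62 ± 0.15) and was not called with PS-NH2 (-0.24 ± 0.14). The transporter gene with a site rose in root with PS-NH2, where ATPS1 and ATPS4 fell. In leaf ATPS3 fell with both particles (-1.06 ± 0.16 and -1.15 ± 0.16), whereas ATPS1, which holds the identical site, was not called with either (0.08 ± 0.12 and -0.24 ± 0.13). ATPS2, in which no site was found, also fell in leaf with both (-0.56 ± 0.14 and -0.58 ± 0.16) and was not called in root. Any part of miR395 in these changes was not tested.

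At the branch point after APS, the kinase genes APK1 and APK2, which feed the sulfated compounds, fell in leaf as the reductases did. In the authors' deposited tables APK2 had a log2 fold change of -0.97 ± 0.13 with PS-SO3H and -1.23 ± 0.12 with PS-NH2, and APK1 had -0.71 ± 0.13 and -1.01 ± 0.13. In root with PS-SO3H both kinase genes rose, APK2 by 0.67 ± 0.09 and APK1 by 0.35 ± 0.10, while APR2 and APR3 fell. With PS-NH2 neither kinase gene was called in root (-0.12 ± 0.10 and 0.05 ± 0.10). For APK2 the fold change with PS-NH2 minus that with PS-SO3H in root was -0.79 ± 0.14 (adjusted p = 3.02e-06), the opposite sign to the reductases. For APK1 this difference was -0.30 ± 0.14 and was not called (adjusted p = 0.389 by the same normal approximation). The other kinase genes, APK3 and APK4, were called in 0 of the 4 tables.

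Downstream, the sulfite reductase gene SIR, whose product acts right after APS reductase, fell in leaf with PS-NH2 (-0.34 ± 0.10) and was not called in the other 3 tables. Serine acetyltransferases supply the carbon skeleton of cysteine. Of their 5 genes 2 fell in leaf with PS-NH2 (SERAT2;1 at -1.14 ± 0.20 and SERAT2;2 at -0.94 ± 0.13), against 7.4% of all genes. The other 3 tables had 0 of the 5 called. Among all genes 4.46% were called there in leaf with PS-SO3H, 4.84% in root with PS-SO3H and 4.32% in root with PS-NH2. The cysteine synthase gene OASTL-B rose in leaf with both particles (0.45 ± 0.12 and 0.38 ± 0.11), as did GSH2 of glutathione synthesis (0.50 ± 0.16 and 0.47 ± 0.15). In root with PS-SO3H the cysteine synthase gene OASTL-A rose (0.52 ± 0.09), and so did GSH1, which encodes the first enzyme of glutathione synthesis (0.37 ± 0.09).

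**Figure D5:**
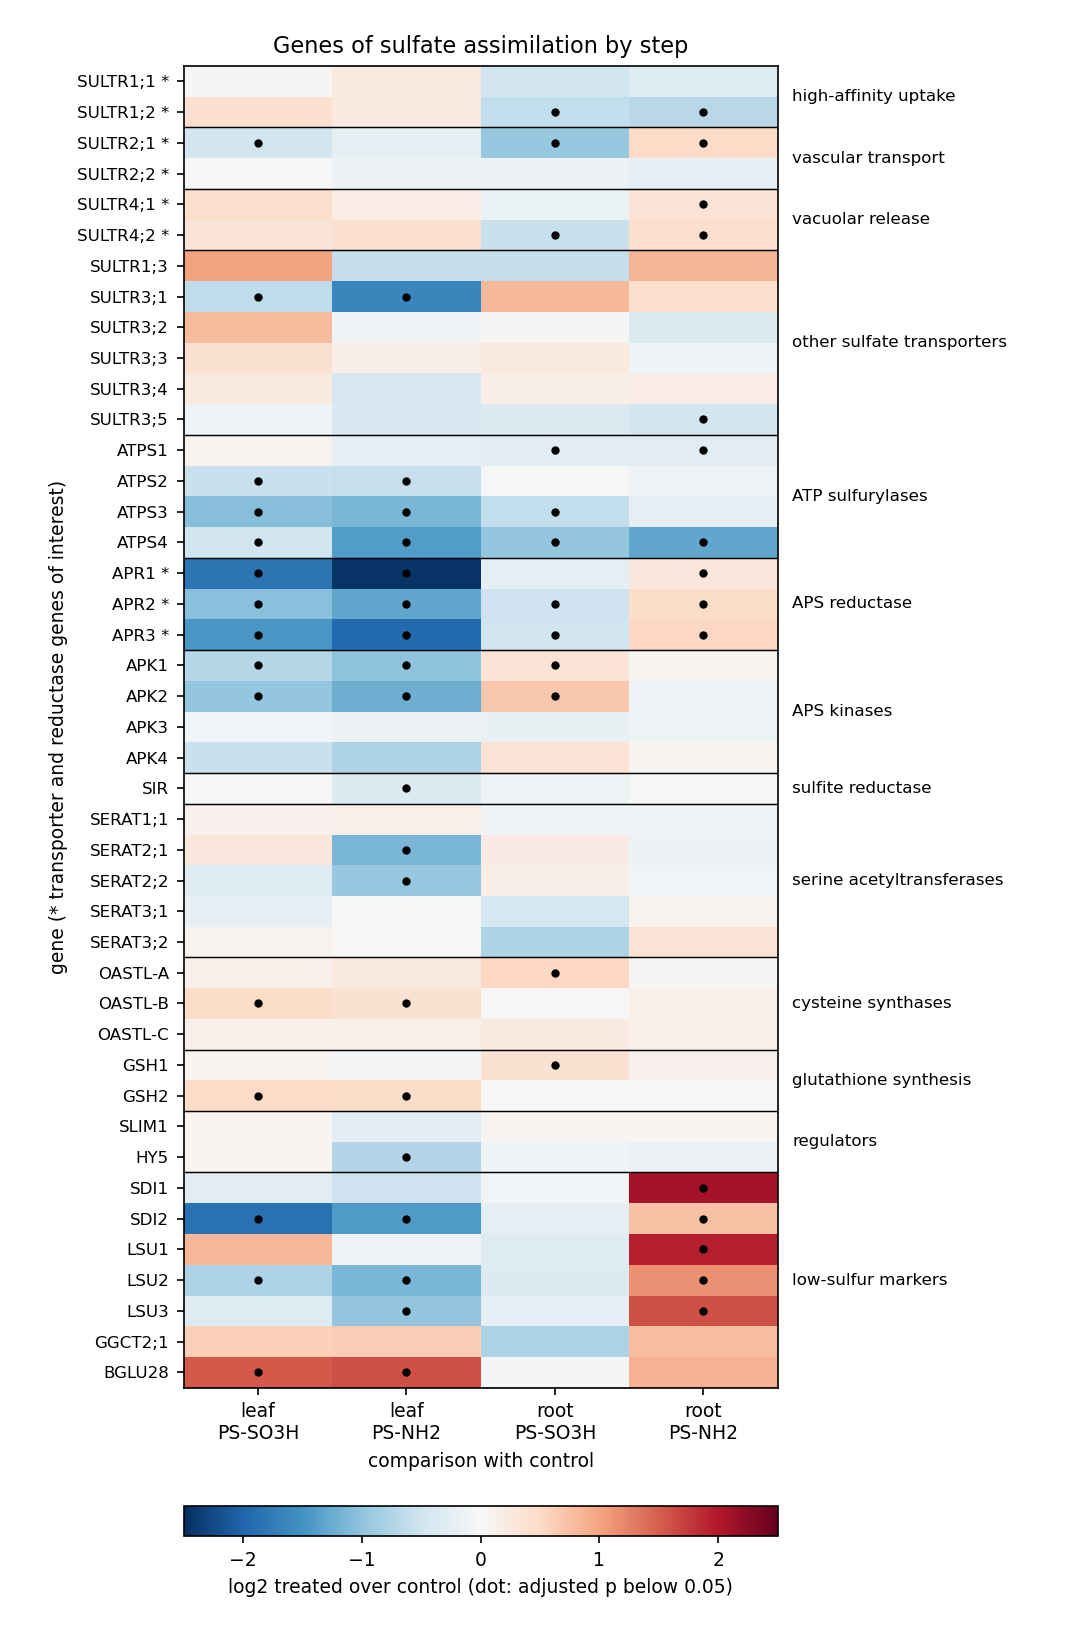
Log2 treated over control of the 9 genes (starred) and 34 other genes of sulfate assimilation, ordered by step, in the 4 tables, where dots mark an authors' adjusted p below 0.05. Reductases and the kinase genes APK1 and APK2 are both low in leaf, and in root with PS-SO3H the kinase genes are high where APR2 and APR3 are low.

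Low-sulfur markers are genes known to be induced when sulfur is short. In root with PS-NH2, 5 of 7 rose, by 2.08 ± 0.21 for SDI1, 1.94 ± 0.17 for LSU1, 1.61 ± 0.22 for LSU3, 1.15 ± 0.15 for LSU2 and 0.73 ± 0.13 for SDI2 on the log2 scale, against 1.62% of all genes called higher in that table. The reductases, the vascular gene SULTR2;1 and both vacuolar exporters rose in the same table, while the uptake gene SULTR1;2 fell. In root with PS-SO3H 0 of 7 markers were called, against 4.84% of all genes in either direction, and their median was -0.25. In leaf SDI2 fell with both particles (-1.86 ± 0.24 and -1.41 ± 0.22), as did LSU2 (-0.77 ± 0.25 and -1.14 ± 0.24), and LSU3 fell with PS-NH2 (-0.98 ± 0.34). BGLU28 rose in leaf with both (1.54 ± 0.25 and 1.61 ± 0.25), against the direction of the reductases. Of the 6 other transporter genes, SULTR3;1, of a plastid sulfate transporter, fell in leaf with both particles (-0.64 ± 0.17 and -1.62 ± 0.18), and SULTR3;5 fell in root with PS-NH2 (-0.48 ± 0.12). The regulator HY5, a light-signalling factor that is known to act on reductase genes, fell in leaf with PS-NH2 (-0.72 ± 0.24), and SLIM1, a regulator of the response to low sulfur, was not called in any of the 4 tables.

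Genes with the most similar pattern were found by the Euclidean distance over the 4 log2 fold changes, among 15353 genes with a mean level of at least 50 in every table. AT4G29780 was nearest to APR1 at a distance of 0.42, followed by AT1G73600 at 0.51 and ASPGB1 at 0.69. ATSPS4F (0.39), AT2G28780 (0.42) and SHM7 (0.42) were nearest to APR2. SHM7, a gene of the serine hydroxymethyltransferase family, was also nearest to APR3 (0.54), followed by RBOHD (0.56) and CYP707A3 (0.60). LSH1 was nearest to SULTR2;1 (0.29), AT3G11280 to SULTR1;2 (0.21), BDG1 to SULTR4;2 (0.15) and UMAMIT31 to SULTR4;1 (0.13). The distances of the reductases are larger than those of the transporters. The tables share controls in pairs, and the distance is a description.

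Coding sequences read from TAIR10.1 shared 80.1% of aligned positions between APR1 and APR3, 73.0% between APR1 and APR2 and 72.4% between APR2 and APR3. Within the transporter pairs the share was 80.7% for the vacuolar, 70.6% for the uptake and 63.8% for the vascular genes. Stretches of 50 bases of the spliced transcripts were looked up in the annotated messenger RNAs of other genes, non-coding RNAs being left out, and 0 recurred for 8 of the 9 genes. For APR2 176 of 2038 do (8.64%), with AT1G62170, which overlaps it on the opposite strand by 225 bases and was listed at levels under 1. An annotated non-coding RNA overlaps APR2 on the opposite strand by 782 bases, another overlaps SULTR2;2 by 942 bases and a further one overlaps SULTR4;2 by 223 bases. The labels do not say that strand was kept, so reads of these partners cannot be told apart from those of the genes.

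In the 250 bases upstream of the annotated start, 0 of the 9 genes hold GAGAC or its reverse complement, the core of an element known to respond to sulfur in the promoter of the uptake gene SULTR1;1. Likewise 0 hold the G-box CACGTG, which HY5 is known to bind. Among 27443 protein-coding genes 25.8% and 6.49% hold them in the same window. No match says only that these letters are not in this window. Sequence further upstream was not searched. The window of SULTR1;1 lacks this core, so the known element of that gene does not lie inside the window.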

How the data were processed

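Each level is a signal per group that the authors fitted and deposited, in reads scaled by size factors and not by gene length. The tables come from a DESeq2 method, as the deposited tables' names say, and their log2 fold changes, p-values and adjusted p-values are used as the authors deposited them. The submitters' processing notes name build TAIR10. The series text names an aligner but describes a library of small RNAs, so it is not carried over, and the aligner and counter used for these tables are not given in the sources at hand. Per the labels' protocols, RNA was taken with Trizol and copied with random primers. The tests on counts that had been planned could not be made, and the authors' comparisons stand in for them. Members and lists were chosen with earlier results of these data known.

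A gene was called at an adjusted p below 0.05. The SE is the fold change divided by the normal quantile of its p-value, and 95% intervals rest on it. Differences between particles and tissues are differences of log2 fold changes, whose squared SEs were summed, with 2-sided p-values from the normal distribution and Benjamini-Hochberg adjustment over all genes in both tables. This step was run on simulated fold changes with independent normal noise of the same SEs. That run cannot check the SEs themselves or the effect of shared controls. Levels per kilobase use the length each table gives. Named genes are the 9 members, the called pathway genes and the 3 nearest genes of each member, of which some are given. Loci were used because the leaf PS-SO3H table holds the reductase symbols as dates. Sequences come from RefSeq TAIR10.1, since the tables carry no coordinates. The miR395 sites, overlaps and shared stretches were looked up after the values were seen. Python 3.11.15, numpy 2.4.6, pandas 2.3.3, scipy 1.17.1 and Biopython 1.88 were used.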

Additional observations from a re-analysis of the deposited data

Results flagged for a closer look

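The following responses of the 9 genes differed between particles or tissues by the test of the difference itself, given as log2 differences and not weighed. In leaf, PS-NH2 minus PS-SO3H, the difference was -0.63 for APR1. In root, PS-NH2 minus PS-SO3H, it was 1.43 for SULTR2;1, 0.51 for SULTR4;1, 0.98 for SULTR4;2, 0.49 for APR1, 0.98 for APR2 and 1.01 for APR3. With PS-SO3H, root minus leaf, it was -1.03 for SULTR1;2, -0.60 for SULTR4;1, -0.87 for SULTR4;2, 1.61 for APR1 and 0.95 for APR3. With PS-NH2, root minus leaf, it was -0.91 for SULTR1;2, 0.70 for SULTR2;1, 2.74 for APR1, 1.76 for APR2 and 2.46 for APR3.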

How the results depend on the processing

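At an adjusted p of at most 0.001 with an absolute log2 value of at least 1, called members went from 5 to 0 in root with PS-SO3H and from 7 to 0 in root with PS-NH2, as they did by the authors' own marks (0 and 0). By the same limits they went from 1 to 0 for the particle difference in leaf, from 6 to 2 in root, from 5 to 2 for the tissue difference with PS-SO3H and from 5 to 3 with PS-NH2. These limits ask for a larger change, and the leaf counts with PS-SO3H (3) and PS-NH2 (3) stayed close. With the shared control covariance taken out, at the assumed correlation of 0.5, 2 members differed between particles in leaf. Re-centring on the median gene kept direction and call for all 72 values of the members. A mean level of at least 10 kept the call for all 67 that passed it, SULTR1;1 in leaf not being among them. With the control level of the other table, SULTR4;1 passed in leaf with PS-SO3H (adjusted p = 0.0381), though its value only went from 0.437 to 0.444. Calls over all genes in that comparison went from 1049 to 2443 under the same setting. SULTR1;1 turned to -0.37 there, at a level too low to read. The cause of these changes was not tested. Of 301 values recomputed for single members 262 kept direction and call, 36 lost the call, 2 gained it and 1 changed sign. Over all genes the stricter limits took the calls from 1049 to 264, 2629 to 737, 1152 to 136 and 1030 to 151 in leaf with PS-SO3H, leaf with PS-NH2, root with PS-SO3H and root with PS-NH2, and the control level of the other table took them to 2443, 3639, 2530 and 2444. With the covariance taken out, particle differences went from 734 to 1925 in leaf and from 761 to 2118 in root. No paired analysis was possible because the tables hold no value per library, and for the same reason leaving out each replicate and the count-based alternatives were not run.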

Other observations

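The deposited gene length was the same in all 4 tables for 6 of the 9 genes and varied for SULTR1;2 (2359 to 2563 bases), SULTR4;2 (2094 to 2281 bases) and APR2 (1649 to 1711 bases), which moves their levels per kilobase but not their fold changes. In each leaf table SULTR1;1 shares its exact control level, treated level and p-value with 2 other genes.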
